A study of Mus musculus with 3 samples.

Results

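The cells described here were innate-like T cells from pools of 2 mouse tumour models, grouped after sequencing by their surface signal for the lectin L-Pha into a high and a low group. A cell was a member when it held at least 500 genes, at most 10% mitochondrial UMIs and 1 clear hashtag, with at least 1 UMI of the T cell gene Cd3e. It also held no UMI of Cd4, Foxp3 or the macrophage gene Lyz2, at most 1 UMI over Cd8a and Cd8b1, and at least 2 UMIs over the signalling adaptors Fcer1g and Tyrobp. Of 19912 deposited cell barcodes, 1205 met this rule, 450 in the B16-Ova pool and 755 in the MC38-Ova pool. L-Pha-high cells were the top quartile of the lectin tag within their own pool, 116 B16-Ova and 189 MC38-Ova cells. L-Pha-low cells were the bottom quartile, 114 B16-Ova and 190 MC38-Ova cells.

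Both groups came from tumour-infiltrating lymphocytes of C57BL/6 mice, taken 14 days after ovalbumin-expressing tumour cells had been placed under the skin. B16-Ova is a melanoma line and MC38-Ova a colon carcinoma line, both made to carry ovalbumin as a model antigen. Live cells positive for T cell receptor β, CD3 and CD90.2 and negative for CD11b were sorted, so most myeloid cells should have been gated out. The 2 pools carried different antibody hashtags and ran through a single droplet capture. The number of mice per pool is not given, no capture without lectin was used, and the library of T cell receptors was not used here.

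L-Pha is a plant lectin that binds N-glycans carrying the β1,6 branch, which the Golgi enzyme encoded by Mgat5 adds. Such branches are extended with repeats that galectins bind, and branching on T cells is known to alter how long receptors stay at the surface. Innate-like T cells are T cells that carry receptors and adaptors better known from natural killer cells, among them NKG2, CD94, the Ly49 family and FcεRIγ, and they act with little prior priming.

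The lectin, 2 checkpoint antibodies and 2 hashtags were each read through a DNA barcode, and these barcodes are shown because every surface value below is a count of 1 of them. Capitals mark the whole barcode of 15 bases.
Biotin (L-Pha): CGGTATATCAACAGA
PD1: GAAAGTCAAAGCACT
Tim3: ATTGGCACTCAGATG
hash#1: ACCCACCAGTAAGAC
hash#2: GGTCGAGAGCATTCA

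The matrix held 169579110 RNA UMIs over 31053 genes, with a median of 5942.5 and a range of 500 to 111658 per barcode. The cell filter left 18429 barcodes and a single clear hashtag 14992. Another 2388 barcodes carried both hashtags, and at that rate 935 B16-Ova and 1524 MC38-Ova barcodes would be doublets within a pool, which hashtags cannot show. The capture was read as separate RNA and tag libraries that share barcodes. Each barcode was counted once, though a doublet barcode holds more than 1 cell. Expression was summed over the cells of each group and pool, giving 4 sums. They held 873028 UMIs in B16-Ova L-Pha-high and 539979 in B16-Ova L-Pha-low cells, and 1645144 in MC38-Ova L-Pha-high and 875677 in MC38-Ova L-Pha-low cells. Levels are given as CPM, the UMIs of a gene scaled by the total of its sum. Each test used 2 pools of 1 capture as pairs. With so few sums, its p-value rests mostly on a spread borrowed across genes. It does not measure the spread between mice. In such sums, fewer cells expressing a gene and less RNA of it per cell cannot be told apart.

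The label held against its markers, with CD8 T cells of the same pools as the comparison (at least 2 UMIs over Cd8a and Cd8b1, none of Fcer1g or Tyrobp, otherwise the same rule; 3016 cells). Klrb1c, which encodes the receptor NK1.1, stood at 136 CPM in B16-Ova and 132 CPM in MC38-Ova innate-like cells, against 1.81 and 3.02 CPM in CD8 cells. Ncr1, the natural killer receptor NKp46, stood at 33.9 and 36.4 CPM in innate-like cells, against 0.181 and 0.0737 CPM in CD8 cells. The Ly49 gene Klra7 stood at 339 and 518 CPM in innate-like cells, against 10.5 and 17.1 CPM in CD8 cells. All 3 were higher in innate-like cells of both pools. Klrd1, which encodes CD94, was not: it stood at 552 and 691 CPM in innate-like cells, against 468 and 747 CPM in CD8 cells. The T cell receptor genes were present, with Cd3d at 934 and 1103 CPM in innate-like cells, against 1123 and 1471 CPM in CD8 cells, and Trac at 176 and 171 CPM, against 218 and 243 CPM. Markers of γδ T cells were present, with a UMI of the 6 listed genes in 146 of 450 B16-Ova and 238 of 755 MC38-Ova innate-like cells (118 and 121 CPM in sum), mostly of γ chain genes such as Trgv2. The δ constant gene Trdc stood at 2.73 and 5.83 CPM, against 0.361 and 1.25 CPM in CD8 cells. Zbtb16, the transcription factor of natural killer T cells and mucosal-associated T cells, stood at 6.63 and 8.12 CPM, against 1.26 and 1.25 CPM. Both were low, and higher in innate-like cells of both pools.

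The high and low groups were selected on the measured L-Pha UMIs, so these values are a description. Median L-Pha UMIs per cell over the 4 quartiles, low to high, were 207, 259, 328 and 475.5 in the B16-Ova pool, and 238, 319, 408 and 699 in the MC38-Ova pool. The B16-Ova high group began at 378 UMIs, with the next cell below at 376, and its low group ended at 234, with the next cell above at 235. The MC38-Ova high group began at 497, with 496 just outside, and its low group ended at 278, with 279 just outside. Within 20 UMIs of the upper boundary lay 41 B16-Ova and 35 MC38-Ova cells, and within 20 of the lower boundary 92 and 98. The quartiles were thus slices of a continuous spread rather than separate populations. A few cells were extreme, with a highest value of 37384 UMIs in the B16-Ova and 26225 UMIs in the MC38-Ova pool. Across classes, innate-like cells held a median of 290.5 B16-Ova and 358 MC38-Ova L-Pha UMIs, CD8 cells 420.5 and 328, and Foxp3-positive cells 926 and 658. Barcodes that passed the cell filter with neither hashtag at the minimum held 139 and 127. They were split by the larger hashtag alone, so their pool is uncertain, and they are not empty droplets. These counts were not scaled for depth. Median RNA UMIs were 4770 and 5593 in innate-like, 6901.5 and 6556 in CD8 and 10258 and 9149 in Foxp3-positive cells. The barcodes below the hashtag minimum held 2780.5 and 2778.5. Per 1000 RNA UMIs their median L-Pha was 46.0 and 43.5, against 59.6 and 66.2 in innate-like cells. Scaled by RNA UMIs, the B16-Ova medians of innate-like and CD8 cells were nearly equal, and Foxp3-positive cells stayed highest in both pools.

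RNA depth moved with L-Pha. Median RNA UMIs per cell were 6014.5 in L-Pha-high and 4336.5 in L-Pha-low B16-Ova cells, and 7752 in L-Pha-high and 4242 in L-Pha-low MC38-Ova cells. The cell's own hashtag was also higher, at 467.5 against 289 and 518 against 342.5 UMIs. Across cells, Spearman's rho of L-Pha with RNA was 0.340 for B16-Ova cells and 0.487 for MC38-Ova cells, and that with the hashtag 0.540 and 0.400. These are descriptions over 450 and 755 cells of 1 capture, whose counts may share depth. The share of mitochondrial UMIs differed little, with medians of 1.92% against 1.99% and 1.78% against 1.92%. A second pair of groups was therefore formed, the top and bottom quartile of L-Pha within each of 10 bins of RNA depth of the pool (121 high and 120 low B16-Ova cells, 190 high and 191 low MC38-Ova cells). In these depth-matched groups the median RNA was 4719 in high and 4778 in low B16-Ova cells, and 5590.5 in high and 5665 in low MC38-Ova cells, while L-Pha still differed, at 468 against 210.5 and 617.5 against 240 UMIs. The hashtag remained higher, at 415 against 306.5 and 470 against 366 UMIs, and the part of overall tag capture in the results was not tested. The 2 contrasts share most cells, and their values are set side by side without counting one as evidence for the other.

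**Figure D1:**
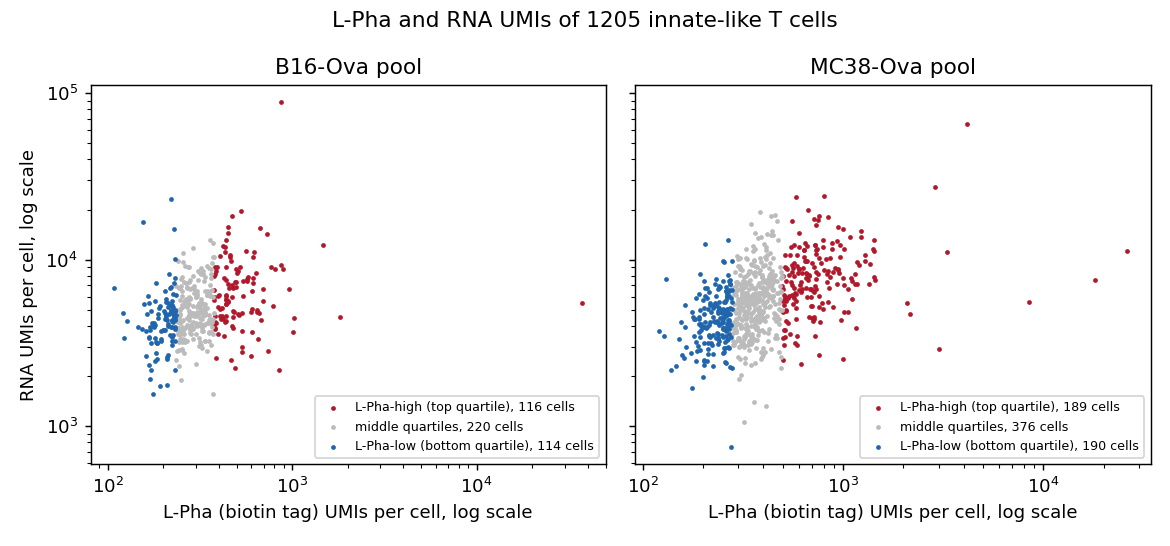
Each point is 1 innate-like T cell, with L-Pha UMIs on the horizontal and RNA UMIs on the vertical log axis, B16-Ova pool on the left and MC38-Ova pool on the right. L-Pha-high cells (116 and 189) lie to the right and on average higher than L-Pha-low cells (114 and 190), and few cells exceed 20000 RNA UMIs.

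Some cells went against the label, and in the plain quartiles more of them were in the high groups. Melanoma markers (Pmel, Mlana, Tyrp1, Dct and Mitf) summed to 1091 UMIs in L-Pha-high and 21 in L-Pha-low B16-Ova cells, and 96.3% of the high sum lay in 1 cell. Stroma markers (4 collagen and matrix genes and Sparc) summed to 759 UMIs in L-Pha-high and 11 in L-Pha-low MC38-Ova cells, with 89.7% in 1 cell, and to 129 and 4 UMIs in B16-Ova cells, with 89.9% in 1 cell. A single L-Pha-high B16-Ova cell held 88273 RNA UMIs, 10.1% of its group, and the largest L-Pha-high MC38-Ova cell held 65565. Macrophage markers summed to 83 and 11 UMIs in high and low B16-Ova cells and to 38 and 19 in MC38-Ova cells, with the defining genes Csf1r, Adgre1, Itgam and Mrc1 at 0. B cell markers summed to 90 and 56 and to 161 and 122 UMIs, with Ms4a1 at 0, and dendritic markers to 180 and 35 and to 202 and 160. Scaled to CPM, B cell markers stood at 103 against 104 and at 97.9 against 139, not higher in the high cells. Dendritic markers stood at 206 against 64.8 CPM in B16-Ova, with 68.9% of the high sum in 1 cell, and at 123 against 183 CPM in MC38-Ova cells. Macrophage markers stood at 95.1 against 20.4 CPM and at 23.1 against 21.7 CPM. Erythroid genes summed to 106 and 3 UMIs in high and low B16-Ova cells, 95.3% in 1 cell, and to 5 and 7 in MC38-Ova cells. Regulatory T cell markers without Foxp3 summed to 487 and 271 and to 872 and 432 UMIs (558 against 502 and 530 against 493 CPM). Cells with at least 3 UMIs over the lists of non-T cells numbered 42 of 116 high and 16 of 114 low B16-Ova cells, and 64 of 189 high and 44 of 190 low MC38-Ova cells, where a deeper cell has more chances to reach 3. Of the depth-matched cells such barcodes were 36 of 121 high and 24 of 120 low B16-Ova cells, and 49 of 190 high and 60 of 191 low MC38-Ova cells. Depth matching did not even out the marker sums. Melanoma markers still summed to 1095 and 21 UMIs in high and low B16-Ova cells, and to 48 and 58 in MC38-Ova cells. Stroma markers summed to 129 and 3 and to 105 and 11 UMIs. Dendritic markers were closer there, at 76.3 against 74.1 and 150 against 139 CPM. The cell of 88273 RNA UMIs made up 11.8% of the depth-matched B16-Ova high group. Several results below that rest on large or mixed cells are given again without some cells. Left out were the cells above 20000 RNA UMIs (1 high and 1 low in B16-Ova, 4 high and 0 low in MC38-Ova), or the cells holding at least 3 such UMIs. Where no such value is given, a result may still rest on few cells. Both omissions were chosen after seeing the data.

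In the plain quartiles, 165 of 7068 genes tested passed an adjusted p of 0.05 (2.33%), 111 with a higher level in L-Pha-high cells (1.57%) and 54 with a lower one (0.764%). In the depth-matched groups 131 of 7367 passed (1.78%), 62 higher (0.842%) and 69 lower (0.937%). Adjusted p-values throughout come from the quasi-likelihood test of edgeR, by the method of Benjamini and Hochberg over all genes tested, and log2 fold changes are L-Pha-high over L-Pha-low with their standard errors. The genes of the membership rule were not tested. The number of calls depended on the model. DESeq2 called 7 genes in each contrast, and the same edgeR fit without pairing the pools called 8 and 2. Of the genes described below, DESeq2 called Tpi1, Gapdh, Pgk1, Slc16a3, Hspa1a, Sparc and Ube2c in the plain quartiles, and Ccr7, Gzma, Tpi1, Slc16a3, Sparc, Serpinh1 and Gng11 with depth matched. The calls of all others below therefore rest on the paired edgeR fit, with the exception of Ncr1 and Gm42418, which also passed in the plain quartiles without pairing, Ncr1 with depth matched too. Without cells above 20000 RNA UMIs 101 of 6867 genes passed in the plain quartiles and 146 of 7166 in the depth-matched groups. Of the 165 and the 131, 79 and 75 were still among them. Without cells holding markers of non-T cells 76 of 5667 and 62 of 6107 passed, with 46 of the 165 and 20 of the 131 among them. These shares over all genes are the background for the counts of called list members below. Counts of calls are not sizes of effect and cannot be compared as such between settings, because the weight of the borrowed spread differed. With depth matched, the total degrees of freedom were 16.1 with all cells. They were 7166 without cells above 20000 RNA UMIs and 461 without cells holding markers of non-T cells.

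L-Pha-high cells carried more RNA of several natural killer receptors in both pools. Of 11 tested NKG2, CD94 and related receptor genes, 3 rose and 0 fell in the plain quartiles, with a median log2 change of 0.38 against -0.01 over all genes tested. In the depth-matched groups 3 rose and 0 fell, with a median of 0.55 against a median of -0.00 over all genes. Leaving out cells above 20000 RNA UMIs, the counts were 3 and 7, with medians of 0.39 and 0.66. Leaving out cells with markers of non-T cells they were 3 and 6, with medians of 0.52 and 0.69. The higher counts with depth matched came from fits with a different weight of the borrowed spread.

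Ncr1 encodes NKp46, an activating receptor of natural killer cells (chr7:4337724-4345164, plus strand, GRCm38). It stood at 55.0 CPM in L-Pha-high and 7.41 CPM in L-Pha-low B16-Ova cells (48 and 4 UMIs), and at 59.6 CPM in L-Pha-high and 11.4 CPM in L-Pha-low MC38-Ova cells (98 and 10 UMIs). Both high sums lay above both low sums. The log2 change was 2.51 ± 0.34 (adjusted p = 6.06e-06), and 2.74 ± 0.33 in the depth-matched groups (adjusted p = 2.72e-04). Over the quartiles, low to high, Ncr1 read 7.41, 30.5, 30.3 and 55.0 CPM in B16-Ova and 11.4, 20.0, 37.4 and 59.6 CPM in MC38-Ova cells, so the middle quartiles lay between the extremes. DESeq2 gave an adjusted p of 0.13, and 0.054 with depth matched. The log2 change was 2.62 without cells above 20000 RNA UMIs and 2.64 without cells holding markers of non-T cells. In cells thinned to 2000 UMIs, those with an Ncr1 UMI held a median of 406 B16-Ova and 447.5 MC38-Ova L-Pha UMIs, against 289 and 354 in those without.

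Klrb1f encodes NKR-P1F, a C-type lectin-like receptor of the natural killer gene complex (chr6:129045901-129057464, plus strand). It had 16 UMIs in L-Pha-high and 1 UMI in L-Pha-low B16-Ova cells (18.3 and 1.85 CPM), and 78 and 5 UMIs in MC38-Ova cells (47.4 and 5.71 CPM). Both high sums exceeded both low sums, though the B16-Ova counts were small. Its log2 change was 3.04 ± 0.48 (adjusted p = 7.67e-05), and 2.63 ± 0.38 in the depth-matched groups (adjusted p = 1.03e-03). Klre1, a partner of inhibitory and activating receptors of the same complex (chr6:129577905-129585827, plus strand), stood at 132 CPM in L-Pha-high and 87.0 CPM in L-Pha-low B16-Ova cells, and at 201 and 107 CPM in MC38-Ova cells. Its ranges did not overlap, and its log2 change was 0.74 ± 0.20 (adjusted p = 0.0362), against 0.60 ± 0.18 in the depth-matched groups (adjusted p = 0.163). Klrc1, which encodes the NKG2A subunit of an inhibitory receptor, changed by 0.07 ± 0.17 in the plain quartiles (adjusted p = 0.920). In the depth-matched groups it stood at 245 CPM in high and 138 CPM in low B16-Ova cells and at 285 and 161 CPM in MC38-Ova cells, and it rose there by 0.73 ± 0.15 (adjusted p = 0.0141).

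The Ly49 genes encode receptors for class I MHC, and their sequences are so alike that reads can be split between copies, so single members are uncertain. Of 6 tested Ly49 genes 2 rose and 0 fell in the plain quartiles, and 1 rose and 0 fell in the depth-matched groups, with medians of 0.03 and 0.07. In each contrast 3 of the 6 had a log2 change above 0, so the list did not move as a whole. Klra9, picked out after its values were seen, stood at 53.8 CPM in L-Pha-high and 102 CPM in L-Pha-low B16-Ova cells and at 42.5 and 64.0 CPM in MC38-Ova cells (log2 -0.78, adjusted p = 0.078). Klra1 stood at 236 CPM in L-Pha-high and 143 CPM in L-Pha-low B16-Ova cells, and at 331 and 187 CPM in MC38-Ova cells. Within each pool the high sum was above the low sum. The log2 change was 0.75 ± 0.16 (adjusted p = 5.72e-03), and 0.76 in the depth-matched groups (adjusted p = 8.88e-03). Klra7 stood at 365 CPM in L-Pha-high and 230 CPM in L-Pha-low B16-Ova cells, and at 606 and 392 CPM in MC38-Ova cells. It rose by 0.61 ± 0.14 (adjusted p = 9.02e-03), against an adjusted p of 0.0757 in the depth-matched groups.

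The share of cells with at least 2 UMIs summed over the Ly49 genes moved the same way once every cell had been thinned to 2000 UMIs. In B16-Ova, 61 of 116 L-Pha-high cells (52.6%, exact 95% interval 43.1 to 61.9%) reached this count, against 40 of 110 L-Pha-low cells (36.4%, 27.4 to 46.1%). In MC38-Ova, 112 of 189 L-Pha-high cells (59.3%, 51.9 to 66.3%) reached it, against 74 of 187 L-Pha-low cells (39.6%, 32.5 to 47.0%). The differences were 16.2 and 19.7 percentage points, with 4 and 3 low cells too shallow to thin, and the intervals cover counting error only. Unthinned shares were 81.9% against 61.4% and 90.5% against 71.1%. In the depth-matched groups the thinned shares were 52.5% against 36.8% and 59.3% against 38.6%. With 2 pools these shares were not tested. Median L-Pha was 303 in B16-Ova cells with at least 2 Ly49 UMIs and 285 in the remaining ones, and 375.5 and 338 in MC38-Ova cells. The remaining cells left out 6 B16-Ova and 4 MC38-Ova cells with at least 2 UMIs over Tmem176a and Tmem176b. The subsets overlapped widely.

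Tyrobp, the adaptor DAP12 that carries the signal of activating natural killer receptors, is a gene of the membership rule and is given as a description. It stood at 427 CPM in L-Pha-high and 122 CPM in L-Pha-low B16-Ova cells, and at 707 and 177 CPM in MC38-Ova cells. Over the quartiles, low to high, it read 122, 145, 211 and 427 CPM in B16-Ova and 177, 310, 382 and 707 CPM in MC38-Ova cells, higher at each step in both pools. In the depth-matched groups it stood at 426 against 99.7 CPM and at 731 against 180 CPM. Fcer1g, the other adaptor of the rule, did not follow it: its level was 767 CPM in L-Pha-high and 811 CPM in L-Pha-low B16-Ova cells, and 1095 and 903 CPM in MC38-Ova cells. Cd3e stood at 836 against 961 CPM and at 874 against 944 CPM.

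**Figure D2:**
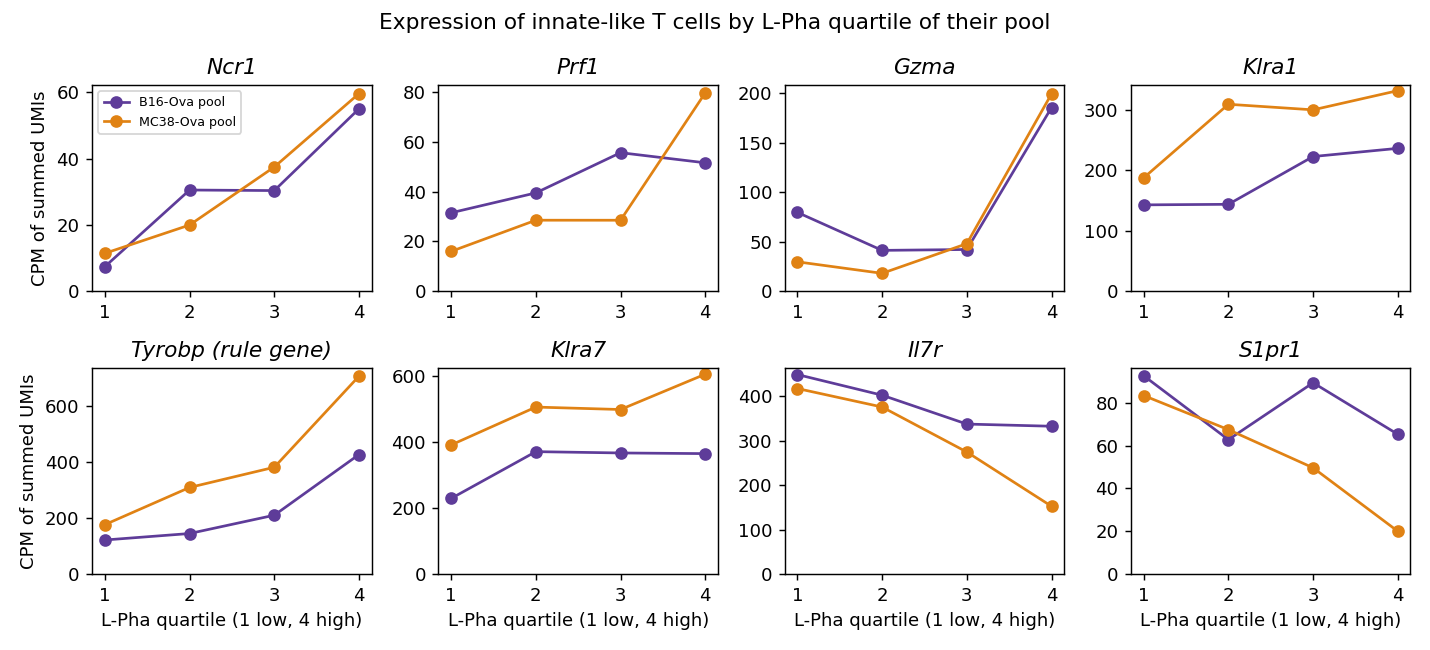
CPM of summed UMIs (vertical axis, from 0) in the 4 L-Pha quartiles of each pool (horizontal axis, 1 low to 4 high), for 8 genes, with 1 line per pool. Ncr1, Prf1, Gzma, Klra1, Klra7 and Tyrobp end highest or near highest in quartile 4, and Il7r and S1pr1 end lowest or near lowest there. Tyrobp was part of the membership rule.

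Among 15 tested genes of the cytotoxic machinery 2 rose and 0 fell, in the plain quartiles and again in the depth-matched groups, with medians of 0.16 and 0.13. Both were the genes of granule killing named next, granzyme A and perforin. Over all genes tested, 1.57% and 0.842% were called higher in the plain quartiles and the depth-matched groups.

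Gzma encodes granzyme A, a granule protease (chr13:113093825-113100981, minus strand). It stood at 186 CPM in L-Pha-high and 79.6 CPM in L-Pha-low B16-Ova cells (162 and 43 UMIs), and at 199 CPM in L-Pha-high and 29.7 CPM in L-Pha-low MC38-Ova cells (328 and 26 UMIs). Both high sums lay above both low sums. The fitted log2 change was 1.92 ± 0.25 (adjusted p = 3.78e-06), and 2.45 ± 0.23 in the depth-matched groups (adjusted p = 1.22e-05), where the levels were 222 against 46.8 and 165 against 22.8 CPM. Few cells held it, with a Gzma UMI in 17 high and 10 low B16-Ova cells and in 49 high and 14 low MC38-Ova cells, and 1 cell held 40.1% of the B16-Ova high sum. Over the quartiles it read 79.6, 41.3, 42.1 and 186 CPM in B16-Ova and 29.7, 18.1, 48.0 and 199 CPM in MC38-Ova cells, so it was raised in the top quartile alone. After thinning, Gzma-positive cells held a median of 283 L-Pha UMIs in B16-Ova, against 293 in negative cells, and 500 against 352 in MC38-Ova, so by cell the relation was seen in MC38-Ova only and was not tested.

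Prf1 encodes perforin, the pore-forming protein of cytotoxic granules (chr10:61297833-61304680, plus strand). It stood at 51.5 CPM in L-Pha-high and 31.5 CPM in L-Pha-low B16-Ova cells (45 and 17 UMIs), and at 79.6 and 15.99 CPM in MC38-Ova cells (131 and 14 UMIs). The sums did not overlap, and the gap was wider in MC38-Ova. After thinning, Prf1-positive cells held a median of 293 L-Pha UMIs in B16-Ova, against 292 in negative cells. In MC38-Ova the medians were 467 and 354, so by cell the relation was seen in MC38-Ova only and was not tested. The log2 change of the sums was 1.57 ± 0.31 (adjusted p = 1.78e-03), and 1.67 ± 0.28 in the depth-matched groups (adjusted p = 3.44e-03). Ranking by L-Pha per hashtag UMI gave 1.02 (adjusted p = 0.10) and 1.10 (adjusted p = 0.47). Gzmb, granzyme B, was picked out after its values were seen, because the pools went opposite ways: 279 CPM in L-Pha-high and 513 CPM in L-Pha-low B16-Ova cells, and 821 and 464 CPM in MC38-Ova cells. Its log2 change over both pools was 0.00 ± 0.21 (adjusted p = 0.998).

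Of 10 tested cytokine and chemokine genes 1 rose in the plain quartiles and 0 of 11 in the depth-matched groups. The shares called higher over all genes were 1.57% and 0.842%. Xcl1 encodes lymphotactin, which draws cross-presenting dendritic cells. It stood at 824 CPM in L-Pha-high and 470 CPM in L-Pha-low B16-Ova cells and at 738 and 340 CPM in MC38-Ova cells, a log2 change of 0.93 ± 0.13 (adjusted p = 1.13e-05). With depth matched it was -0.04 ± 0.22 (adjusted p = 0.992), with 712 CPM in high and 1159 CPM in low B16-Ova cells and 702 and 401 CPM in MC38-Ova cells. The pools went opposite ways there, and 1 cell held 49.0% of the B16-Ova low sum. Tnfrsf9, the costimulatory receptor 4-1BB, stood at 279 against 157 CPM in B16-Ova and 253 against 108 CPM in MC38-Ova cells. It rose in the plain quartiles (adjusted p = 3.59e-04) and had an adjusted p of 0.551 with depth matched. Rgs1, a regulator of chemokine receptor signalling found in tissue-resident T cells, rose with depth matched alone, by 0.62 ± 0.13 (adjusted p = 0.0147).

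Transcription factor genes split between the groups. Of 16 tested factors of innate-like and effector T cells 4 rose and 2 fell in the plain quartiles, with a median of -0.05, and 0 of 17 rose and 1 fell with depth matched. Over all genes, 1.57% rose and 0.764% fell in the plain quartiles, and 0.842% and 0.937% with depth matched. The 4 that rose were Irf8, Eomes, Bhlhe40 and Zeb2, and the 2 that fell were Id3 and Lef1. Irf8, a factor of activated lymphocytes, stood at 82.5 CPM in L-Pha-high and 46.3 CPM in L-Pha-low B16-Ova cells and at 109 and 27.4 CPM in MC38-Ova cells (log2 1.43 ± 0.27, adjusted p = 1.02e-03). Eomes, a driver of cytotoxic and memory programmes, stood at 61.9 against 33.3 CPM and at 85.7 against 38.8 CPM (log2 1.01 ± 0.26, adjusted p = 0.0244). Neither passed with depth matched, where the adjusted p was 0.622 and 0.544. Id3, which restrains E proteins in naive and memory cells, stood at 40.1 against 70.4 CPM and at 28.0 against 56.0 CPM. It fell in both contrasts, with a log2 change of -0.95 ± 0.25 (adjusted p = 0.0329) and of -1.21 ± 0.26 with depth matched (adjusted p = 0.0177), but after thinning to 2000 UMIs the values were 0.038 and 0.029. Lef1, a factor of naive T cells, stood at 112 against 156 CPM and at 92.4 against 194 CPM (log2 -0.84 ± 0.20, adjusted p = 0.0121; 0.0719 with depth matched).

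Genes of naive and memory T cells were lower in L-Pha-high cells. Of 12 tested, 0 rose and 6 fell in the plain quartiles, with a median log2 change of -0.74. With depth matched 1 of 13 fell and 0 rose, with a median of -0.37. Without cells above 20000 RNA UMIs the counts lower were 6 and 4, with medians of -0.62 and -0.25. Without cells holding markers of non-T cells they were 4 and 4, with medians of -0.33 and -0.25. With depth matched the medians thus lay nearer 0 although more genes passed.

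Il7r encodes the receptor for the survival cytokine IL-7 (chr15:9505788-9530176, minus strand). It stood at 332 CPM in L-Pha-high and 448 CPM in L-Pha-low B16-Ova cells, and at 153 and 417 CPM in MC38-Ova cells. Over the quartiles, low to high, it read 448, 402, 337 and 332 CPM in B16-Ova and 417, 375, 274 and 153 CPM in MC38-Ova cells, lower at each step in both. The fit gave a log2 change of -0.98 ± 0.17 (adjusted p = 2.62e-04), and -0.32 ± 0.15 with depth matched (adjusted p = 0.593). Klf2, a factor that keeps T cells circulating, read 904, 712, 602 and 541 CPM in B16-Ova and 303, 229, 185 and 151 CPM in MC38-Ova quartiles. It fell by 0.90 on the log2 scale (SE 0.14, adjusted p = 3.95e-05), against an adjusted p of 0.178 with depth matched. S1pr1, the receptor that leads T cells out of tissue and a target of Klf2, stood at 65.3 against 92.6 CPM and at 20.1 against 83.4 CPM, a log2 change of -1.29 ± 0.27 (adjusted p = 3.52e-03). It did not pass with depth matched, where its adjusted p was 0.725. Klf3, a relative of Klf2 found in resting lymphocytes, stood at 124 against 189 CPM and at 73.5 against 193 CPM, a log2 change of -1.06 ± 0.20 (adjusted p = 1.03e-03; 0.192 with depth matched).

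Ccr7, the receptor that leads naive and memory T cells to lymph nodes (chr11:99144196-99155077, minus strand), differed more with depth matched. There it stood at 44.2 CPM in high and 106 CPM in low B16-Ova cells and at 21.7 and 160 CPM in MC38-Ova cells, with a log2 change of -2.22 ± 0.30 (adjusted p = 5.10e-04). In the plain quartiles it stood at 83.6 against 83.3 CPM in B16-Ova and at 50.5 against 158 CPM in MC38-Ova cells (log2 -0.96 ± 0.26, adjusted p = 0.0375), so the B16-Ova pool showed no gap. Without cells holding markers of non-T cells the matched change was -1.21 (adjusted p = 0.0154) and the plain change -0.00.

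**Figure D3:**
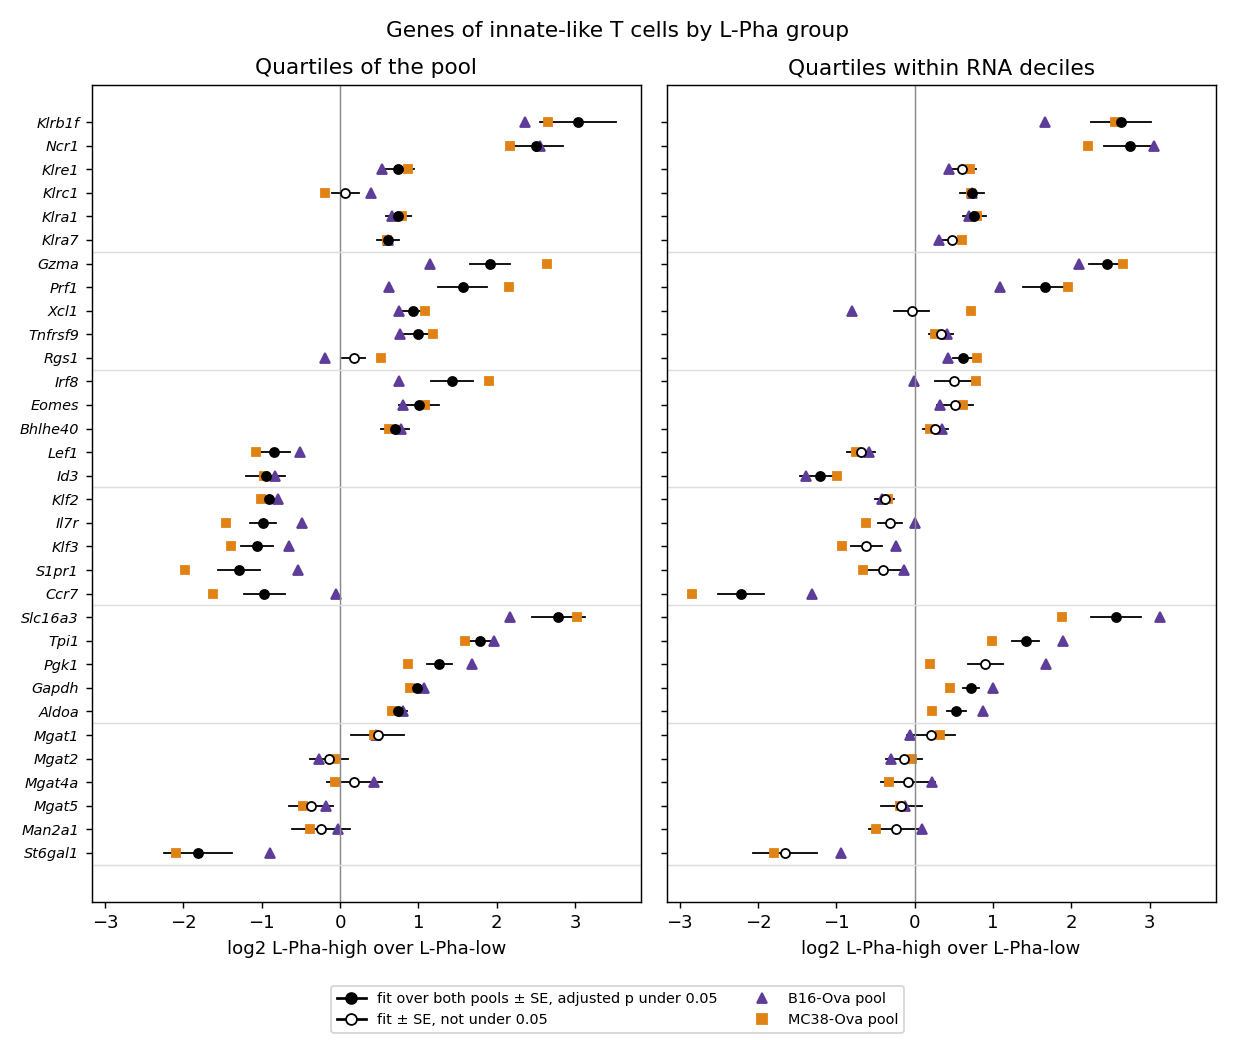
Log2 fold changes of L-Pha-high over L-Pha-low cells (horizontal axis) for genes of 6 groups (rows), in the plain quartiles on the left and the depth-matched groups on the right. Circles with bars are the fit over both pools ± SE, filled where the adjusted p was under 0.05, and triangles and squares are the B16-Ova and MC38-Ova pools. Ncr1, Klrb1f, Gzma and Prf1 lie right of 0 in both panels, Ccr7 and Id3 left of 0, and Mgat5 near 0.

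Cell division genes were higher in L-Pha-high cells, and part of this lay in a few cells. Of 17 tested G2M genes 10 rose and 0 fell in the plain quartiles (median log2 1.47), and 10 of 18 rose with depth matched (median 1.48). Without cells above 20000 RNA UMIs 5 of 12 and 4 of 14 rose, with medians of 1.02 and 0.69, and without cells holding markers of non-T cells 2 of 10 and 1 of 9. S phase genes rose in 3 of 21 and 1 of 21, with medians of 0.39 and -0.22. Birc5, the mitotic protein survivin, stood at 45.8 CPM in L-Pha-high and 9.26 CPM in L-Pha-low B16-Ova cells and at 96.6 and 17.1 CPM in MC38-Ova cells (log2 2.40 ± 0.31, adjusted p = 3.09e-06; depth-matched 2.19 ± 0.28, adjusted p = 3.99e-04). Its log2 change was 1.90 without cells above 20000 RNA UMIs, and 1.52 without cells holding markers of non-T cells (adjusted p = 0.0202), with a matched adjusted p of 0.798 in the last setting. Top2a, the topoisomerase of dividing cells, stood at 48.1 against 40.7 CPM in B16-Ova and at 168 against 35.4 CPM in MC38-Ova cells, a gap mostly of the second pool (log2 1.47 ± 0.31, adjusted p = 3.06e-03). Ube2c, a ubiquitin enzyme of mitotic exit, had 25 UMIs in L-Pha-high and 0 in L-Pha-low B16-Ova cells and 225 and 8 in MC38-Ova cells, where 1 cell held 74.7% of the high sum. Against a floor of 3 counts in the B16-Ova low sum it was at least 5.15-fold higher in that pool, and its fitted log2 change was 2.26 without cells above 20000 RNA UMIs (adjusted p = 6.28e-03).

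Glycolysis genes were higher in L-Pha-high cells of both pools, and the size of the gap turned on a few large cells. Of 18 tested 10 rose and 0 fell in the plain quartiles (median log2 0.78), and 8 rose and 0 fell with depth matched (median 0.58). Without cells above 20000 RNA UMIs 6 and 2 rose, with medians of 0.46 and 0.17. Without cells holding markers of non-T cells 3 of 17 and 0 of 17 rose, with medians of 0.48 and 0.17. The genes that passed ran along the pathway, from Aldoa (aldolase) through Tpi1, Gapdh, Pgk1, Pgam1 and Eno1 to Pkm (pyruvate kinase) and Ldha (lactate dehydrogenase). Oxidative phosphorylation genes rose in 2 of 24 (Cycs and Cox5b) in the plain quartiles and in 0 of 24 with depth matched. The matching shares of all genes tested were 1.57% and 0.842%.

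Tpi1, triosephosphate isomerase (chr6:124810586-124814296, minus strand), stood at 660 CPM in L-Pha-high and 161 CPM in L-Pha-low B16-Ova cells and at 496 and 160 CPM in MC38-Ova cells. The log2 change was 1.78 ± 0.15 (adjusted p = 4.38e-10) and 1.41 ± 0.17 with depth matched (adjusted p = 2.72e-04). Both high sums lay above both low sums, and 1 cell held 66.8% of the B16-Ova high sum. Without cells above 20000 RNA UMIs the changes were 1.01 (adjusted p = 2.25e-05) and 0.45 (adjusted p = 0.042), and without cells holding markers of non-T cells 0.82 (adjusted p = 3.11e-03) and 0.49 (adjusted p = 0.138). Gapdh stood at 2672 against 1226 CPM and at 2348 against 1246 CPM, a log2 change of 0.98 ± 0.10 (adjusted p = 1.19e-08). It was 0.56 without cells above 20000 RNA UMIs (adjusted p = 2.17e-03), and 0.18 there with depth matched (adjusted p = 0.458). Slc16a3, the lactate exporter MCT4 (chr11:120948480-120960868, plus strand), had 74 UMIs in L-Pha-high and 9 in L-Pha-low B16-Ova cells and 102 and 5 in MC38-Ova cells, with 81.1% of the B16-Ova high sum in 1 cell. Its log2 change was 2.79 ± 0.34 (adjusted p = 9.39e-07), and 1.63 without cells above 20000 RNA UMIs (adjusted p = 0.0316). Bnip3, a hypoxia-induced mitophagy gene (chr7:138890836-138909519, minus strand), changed by 1.69 ± 0.29 (adjusted p = 2.39e-04) with 84.0% of the B16-Ova high sum in 1 cell, and by 0.75 without cells above 20000 RNA UMIs (adjusted p = 0.254).

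Some large fold changes belonged to genes of which 1 cell in a pool held most UMIs. Sparc, a matrix protein of stroma, had 128 UMIs in L-Pha-high and 3 in L-Pha-low B16-Ova cells and 324 and 4 in MC38-Ova cells, with 90.6% and 79.6% of the high sums in 1 cell each. Serpinh1, a collagen chaperone, had 98 UMIs in L-Pha-high and 0 in L-Pha-low B16-Ova cells and 47 and 0 in MC38-Ova cells, at least 20.2-fold and 8.34-fold higher against a floor of 3 counts, with 71.4% and 63.8% in 1 cell. Mt1, a metallothionein, rose with 91.8% of its B16-Ova high sum in 1 cell, and its log2 change was 0.26 without cells above 20000 RNA UMIs (adjusted p = 0.85). Tm4sf1 (log2 2.94), Cd63 (log2 2.26) and Gng11 had between 48.4% and 93.8% of each high sum in 1 cell, and Cd63 was -0.81 without cells above 20000 RNA UMIs. Ecm1, an extracellular matrix protein with 45.6% of its MC38-Ova high sum in 1 cell, rose by 2.36 ± 0.35 with all cells (adjusted p = 2.51e-05), and was 0.28 without cells holding markers of non-T cells (adjusted p = 0.919). Apart from Ecm1, these values describe mainly single barcodes rather than the groups.

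Among the genes that fell most were several at low and even levels across cells. Il6st, the shared receptor chain of IL-6 family cytokines, stood at 20.6 CPM in L-Pha-high and 40.7 CPM in L-Pha-low B16-Ova cells and at 18.2 and 40.0 CPM in MC38-Ova cells. Its groups did not overlap, and its log2 change was -1.10 ± 0.30 (adjusted p = 0.0401), or -1.35 without cells holding markers of non-T cells (adjusted p = 0.0426). Cbx7, a Polycomb protein, stood at 19.5 against 46.3 CPM and at 17.02 against 36.5 CPM (log2 -1.19 ± 0.31, adjusted p = 0.0273). Plcg1, the phospholipase that acts below receptors of lymphocytes, stood at 36.7 against 50.0 CPM and at 12.8 against 42.3 CPM (log2 -1.11 ± 0.30, adjusted p = 0.0384). Fam13b, Thada, N4bp2, Sin3a and Mfap1b fell by similar amounts, with log2 changes between -1.06 and -1.11. None of these 8 genes passed with depth matched.

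**Figure D4:**
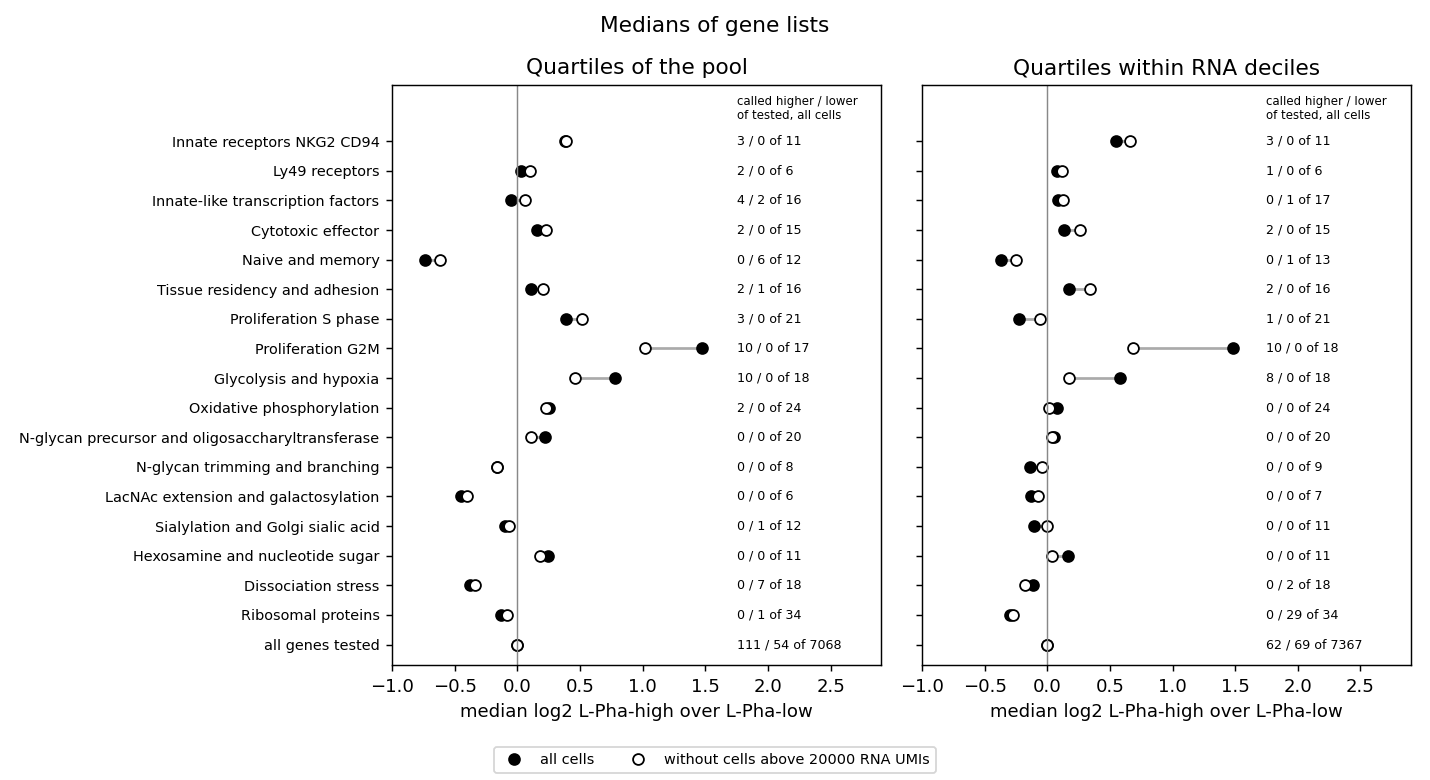
Median log2 fold change of L-Pha-high over L-Pha-low cells (horizontal axis) for gene lists (rows), in the plain quartiles on the left and the depth-matched groups on the right. Filled circles use all cells and open circles leave out cells above 20000 RNA UMIs, and the text beside each row gives genes called higher and lower of those tested. The medians of G2M genes (1.47 and 1.02) and glycolysis (0.78 and 0.46) move most, and those of natural killer receptors and naive genes stay on their side.

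No transcript of the branching pathway itself passed the test, which does not show equal levels. Mgat5 encodes the enzyme that makes the branch L-Pha binds (chr1:127205015-127488336, plus strand). It had 28 UMIs in L-Pha-high and 19 in L-Pha-low B16-Ova cells (32.1 and 35.2 CPM), and 46 and 34 UMIs in MC38-Ova cells (28.0 and 38.8 CPM). The high sums were slightly below the low sums in each pool. The log2 change was -0.37 ± 0.28 (adjusted p = 0.662), and -0.17 ± 0.26 with depth matched (adjusted p = 0.958). Over the quartiles, low to high, it read 35.2, 30.5, 42.1 and 32.1 CPM in B16-Ova and 38.8, 44.7, 31.7 and 28.0 CPM in MC38-Ova cells, with no order shared by the pools. With counts this low, moderate changes would often be missed.

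Genes of the steps before and beside Mgat5 did not pass the test either, and they differed in direction. Mgat1, which starts the complex branch, stood at 29.8 CPM in L-Pha-high and 20.4 CPM in L-Pha-low B16-Ova cells and at 27.4 and 19.4 CPM in MC38-Ova cells (log2 0.48 ± 0.34, adjusted p = 0.625). Mgat2, which adds the second branch, stood at 45.8 against 53.7 CPM and at 59.0 against 60.5 CPM (log2 -0.15 ± 0.24, adjusted p = 0.870). Mgat4a, which adds the β1,4 branch, changed by 0.18 ± 0.35 (adjusted p = 0.894), and the mannosidase gene Man2a1 by -0.24 ± 0.36 (adjusted p = 0.849). Mgat3, whose product blocks further branching, had 0 UMIs in all 4 sums. Mgat4b had 21 UMIs in L-Pha-high and 1 UMI in L-Pha-low B16-Ova cells, with 4 and 7 for MC38-Ova, and Man2a2 had 6 and 3 UMIs, with 15 and 8 for MC38-Ova. Both were too low to test, and 66.7% of the Mgat4b UMIs of the B16-Ova high sum lay in 1 cell. Of 8 tested trimming and branching genes 0 passed, of 6 galactosylation and chain-extension genes 0, of 11 hexosamine and sugar-donor genes 0, and of 20 precursor and transferase genes 0. With 2.33% of all genes called, lists of these sizes would hold few calls or none in any case, so the counts say nothing particular about the pathway.

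A sialyltransferase and a galectin gene did pass. St6gal1 encodes the enzyme that caps N-glycan branches with α2,6-sialic acid (chr16:23224740-23360350, plus strand). It stood at 11.5 CPM in L-Pha-high and 22.2 CPM in L-Pha-low B16-Ova cells (10 and 12 UMIs), and at 6.08 and 32.0 CPM in MC38-Ova cells (10 and 28 UMIs). Over the quartiles, low to high, it read 22.2, 23.3, 5.06 and 11.5 CPM in B16-Ova and 32.0, 21.9, 10.6 and 6.08 CPM in MC38-Ova cells. It fell in the plain quartiles (log2 -1.81 ± 0.44, adjusted p = 0.0155). With depth matched the change was -1.66 ± 0.41 (adjusted p = 0.0517), and without cells holding markers of non-T cells the adjusted p was 0.117. It was the single call among 12 sialylation genes, and its counts were small. Lgals1 encodes galectin-1, a lectin that binds branched glycans. It stood at 648 CPM in L-Pha-high and 604 CPM in L-Pha-low B16-Ova cells and at 1260 and 564 CPM in MC38-Ova cells, a gap of the second pool (log2 0.62 ± 0.15, adjusted p = 0.0197; depth-matched adjusted p = 0.208). Lgals3 rose with depth matched, by 1.02 ± 0.22 (adjusted p = 0.0231), and had an adjusted p of 0.947 there without cells holding markers of non-T cells.

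Early-response and heat-shock genes were lower in L-Pha-high cells. Of 18 genes known to respond to tissue dissociation 7 fell and 0 rose in the plain quartiles (median log2 -0.38), and 2 fell with depth matched (median -0.11). Hspa1a and Hspa1b encode near-identical HSP70 proteins whose reads can be split between them. Hspa1a had 45 UMIs in L-Pha-high and 142 in L-Pha-low B16-Ova cells (51.5 and 263 CPM) and 11 and 19 in MC38-Ova cells (6.69 and 21.7 CPM). Within each pool the high sum was lower, although the B16-Ova high sum exceeded the MC38-Ova low sum. It fell by 2.23 on the log2 scale (SE 0.27, adjusted p = 1.02e-06), and by 2.38 with depth matched (adjusted p = 4.42e-04). Fos, an AP-1 subunit, stood at 723 against 861 CPM and at 617 against 1168 CPM (log2 -0.63 ± 0.13, adjusted p = 2.47e-03; depth-matched adjusted p = 0.693).

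Depth matching brought out ribosomal protein genes. Of 34 tested 1 fell in the plain quartiles and 29 with depth matched, 0 rose in either, and the medians were -0.13 and -0.30. Rps19, a small-subunit protein, stood at 3054 CPM in high and 3739 CPM in low B16-Ova cells and at 2872 and 3860 CPM in MC38-Ova cells of the depth-matched groups (log2 -0.45 ± 0.06, adjusted p = 6.25e-04). The count was 20 without cells above 20000 RNA UMIs and 2 without cells holding markers of non-T cells, with medians of -0.27 and -0.20. Gm42418, a locus overlapping ribosomal RNA and often read as a sign of ribosomal RNA carry-over, fell in both contrasts. Over the quartiles, low to high, it read 11650, 11618, 9660 and 7584 CPM in B16-Ova and 11343, 12819, 10239 and 7026 CPM in MC38-Ova cells (log2 -0.69 ± 0.07, adjusted p = 5.81e-09; depth-matched -0.53 ± 0.04, adjusted p = 7.28e-06). Its part in the other results was not tested.

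The antibody tags for checkpoint receptors were higher in L-Pha-high cells, as counts of UMIs. Median PD-1 tag UMIs were 17 in L-Pha-high and 12.5 in L-Pha-low B16-Ova cells and 17 and 13 in MC38-Ova cells, a mean log2 ratio of 0.42 ± 0.04 (SD, n = 2 pools). Median Tim-3 tag UMIs were 23 against 15 and 20 against 16.5, a mean log2 ratio of 0.45 ± 0.24 (SD, n = 2 pools). With depth matched they were 16 against 13 in both pools for PD-1, and 23 against 16 and 20 against 17 for Tim-3. When cells were ranked by L-Pha per hashtag UMI, PD-1 stood at 14 against 15 and 15 against 14, so the order was not kept in B16-Ova. No test was made over 2 pools. Pdcd1, which encodes PD-1, stood at 42.4 against 46.3 CPM and at 38.9 against 43.4 CPM (log2 -0.18 ± 0.26, adjusted p = 0.840), which does not show equal levels. Havcr2, which encodes Tim-3, had 8 and 4 UMIs in B16-Ova and 11 and 12 in MC38-Ova cells, too few to show whether a gap was present.

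The same high and low split, with depth matched, was made in CD8 T cells of the same pools (321 high and 321 low B16-Ova cells, 444 and 446 MC38-Ova cells). The difference between the 2 classes was tested for each gene in 1 model over the 8 sums. It passed for 4 of 9449 genes (0.0423%), all with a larger log2 change in innate-like cells, and 496 genes had an unadjusted p under 0.05. Few genes therefore showed a class difference at this precision, and the natural killer receptors above were not among them. Ncr1 stood at only 0.181 and 0.0737 CPM in B16-Ova and MC38-Ova CD8 cells, so its change there could hardly be estimated. For a receptor so low in CD8 cells, the test cannot decide whether the change differed between the classes.

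Gzma was 1 of the 4. In CD8 cells it stood at 104 CPM in high and 89.9 CPM in low B16-Ova cells and at 165 and 245 CPM in MC38-Ova cells, against 222 and 46.8 and 165 and 22.8 CPM in innate-like cells. Its log2 change was 2.44 in innate-like and -0.30 in CD8 cells, a difference of 2.74 ± 0.31 (adjusted p = 0.0143). Lmna, nuclear lamin A, was named after its values were seen. It stood at 108 and 55.9 and at 145 and 76.9 CPM in high and low innate-like cells, against 22.5 and 39.5 and 87.9 and 143 CPM in CD8 cells, higher with L-Pha in one class and lower in the other in both pools (difference 1.65 ± 0.22, adjusted p = 0.0341). Ube2c and Ifitm1 also passed, with 81.2% and 93.8% of their MC38-Ova innate-like high sums in 1 cell. With terciles in place of quartiles, Gzma alone passed (2.59, adjusted p = 0.0027).

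**Figure D5:**
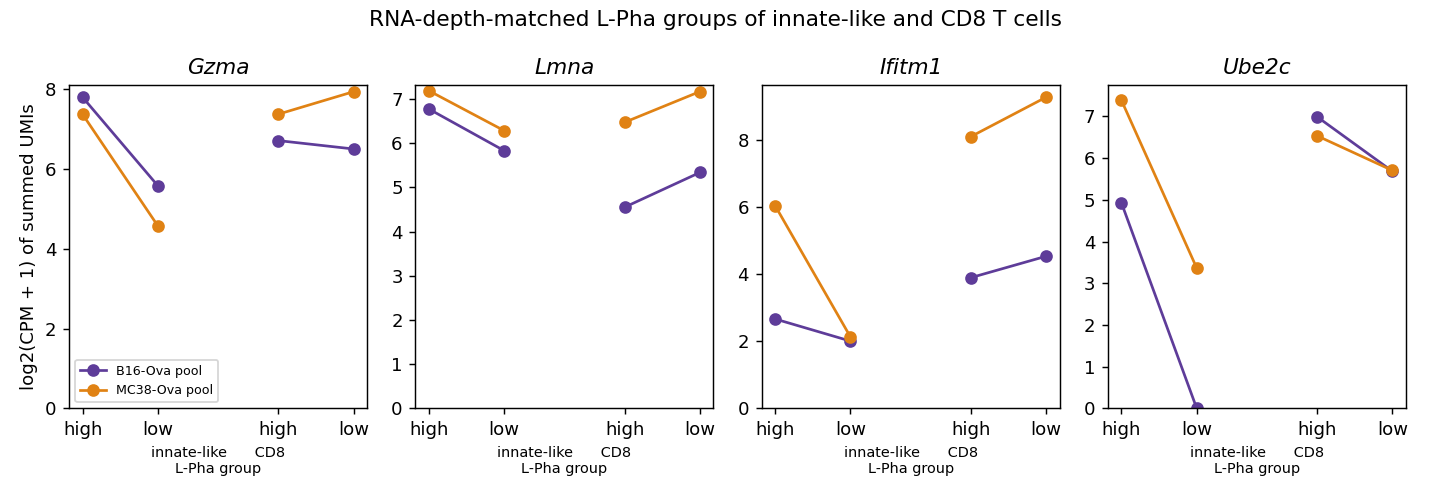
Log2(CPM + 1) of summed UMIs (vertical axis) in high and low L-Pha groups matched for RNA depth, for innate-like cells on the left and CD8 cells on the right of each panel, with 1 line per pool. Gzma and Lmna are higher in the high group of innate-like cells in both pools, and Lmna is lower in the high group of CD8 cells.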

How the data were processed

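The authors deposited 1 matrix of raw UMI counts per gene or tag and barcode. Reads were processed with Cell Ranger 3.1.0 against mm10, per the submitters' processing notes, and the matrix header names software version 3.0.2. The annotation release and cell calling are not given in the sources used here. From the deposited counts, cells were summed per pool and L-Pha group. edgeR 4.0.16 (R 4.3.3; TMM, filterByExpr, quasi-likelihood F-test, pool as block, 1 residual degree of freedom) tested the 4 sums, with Benjamini-Hochberg adjustment at 0.05. The spread was therefore mostly borrowed across genes. The difference from CD8 cells was fitted over 8 sums. The hashtag needed at least 150 UMIs and 3 times the other. Rule genes and mitochondrial genes were not tested. Pool-wise log2 values used a prior count of 2, and floors 3 counts. Coordinates are from GENCODE M21 (GRCm38). Scrublet (scanpy 1.11.5) scores served as an alternative that left out the highest-scoring cells.

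The members and gene lists were chosen with earlier results of these data known. Named genes were the 12 with the largest change in each direction among those called in the plain quartiles with a mean of 20 CPM and 1 direction in both pools and contrasts, the 10 of the depth-matched groups by the same rule, called list members and fixed glycan, checkpoint and rule genes. Gzmb, Klra9, Lmna and Ifitm1 were added after their values were seen. Lists were described by counts and medians. The sequences of the tags come from the deposited feature table. Results for some genes are not reported here.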

Additional observations from a re-analysis of the deposited data

Results flagged for a closer look

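For 4 genes the L-Pha-high against L-Pha-low change, with RNA depth matched, differed between innate-like and CD8 T cells by edgeR's test of the difference over 8 sums (Benjamini-Hochberg adjustment over all genes tested). Gzma, granzyme A, had a log2 difference of 2.74 ± 0.31 (adjusted p = 0.0143), with a higher sum in L-Pha-high innate-like cells of both pools. By cell, after thinning, Gzma-positive B16-Ova innate-like cells held a median of 283 L-Pha UMIs, against 293 in negative cells. Lmna, nuclear lamin A, had a difference of 1.65 ± 0.22 (adjusted p = 0.0341), and Ube2c, a mitotic ubiquitin enzyme, one of 3.23 ± 0.41 (adjusted p = 0.0266). Ube2c had 22 and 0 UMIs in B16-Ova and 207 and 11 UMIs in MC38-Ova high and low innate-like cells. Most of its MC38-Ova high sum lay in 1 cell. Ifitm1, an interferon-induced membrane protein, had a difference of 4.70 ± 0.54 (adjusted p = 0.0143) on 81 and 4 UMIs in MC38-Ova and 4 and 2 UMIs in B16-Ova high and low innate-like cells, with 93.8% of the MC38-Ova high sum in 1 cell. In CD8 cells Ifitm1 stood at 276 CPM in high and 625 CPM in low MC38-Ova cells. With terciles in place of quartiles the adjusted p was 0.130 for Ifitm1 and 0.109 for both Ube2c and Lmna. With RLE size factors, and without the highest Scrublet scores, 4 genes passed. The first used the same sums, and the second left out only 16 of 450 B16-Ova and 24 of 755 MC38-Ova innate-like cells. Neither can decide what part doublets had in these results.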

How the results depend on the processing

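The pool, which pairs the high and low sums, was the block of every fit. Without the replicate block 8 genes passed in the plain quartiles and 2 in the depth-matched groups, against 165 and 131 with it, and DESeq2 called 7 in each. With the block the spread was mostly borrowed across genes, so the number of calls rests on that sharing. In the plain quartiles the count was 304 with no filter, 89 with L-Pha taken as the residual on RNA and hashtag, 30 with cells thinned to 2000 UMIs, 75 with stricter membership, 54 without proliferating cells, 101 without cells above 20000 RNA UMIs and 76 without cells holding markers of non-T cells. In the depth-matched groups it was 294 with no filter, 23 with terciles, 9 with L-Pha per hashtag, 8 with thinning, 8 with stricter membership, 2 with a hashtag ratio of 6, 35 without proliferating cells and 62 without cells holding markers of non-T cells. The other settings stayed within 1.5 times. The difference from CD8 cells was called for 1 gene with terciles and 29 with no filter. The PD-1 tag ratio of 0.42 was 0.30 with depth matched, 0.30 with terciles, 0 per hashtag, 0.21 with the residual and 0.33 without the highest Scrublet scores, and the Tim-3 ratio of 0.45 was 0.16 per hashtag. The causes were not tested.

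Changes of sign, as log2 values, were as follows. In the B16-Ova pool alone Rgs1 was -0.19, Rrm2 -0.053 and Ccna2 -0.37, and with depth matched Irf8 was -0.0088, Il7r 0.0031, Fos 0.0039, Mgat1 -0.060, Mgat4a 0.22 and Man2a1 0.093. In the MC38-Ova pool alone Klrc1 was -0.19, Dct -0.49 and Mgat4a -0.060, and with depth matched Xcl1 was 0.72, Pmel -0.42, Dct -0.37 and Havcr2 -0.42. With L-Pha groups formed within subsets Mgat2 was 0.053, and Mgat4a 0.013 with depth matched. Per hashtag and depth-matched, Ecm1 was -0.97, Lars2 0.015, Xcl1 0.17, Mgat4a 0.22 and Havcr2 -0.051. With thinning Id3 was 0.038, and with depth matched Id3 was 0.029, Xcl1 0.23, Pgam1 -0.074 and Mgat5 0.37. With a hashtag ratio of 6 Klrc1 was -0.042, and with depth matched Xcl1 was 0.78 and Mgat4a 0.055. With the residual Mgat5 was 0.10, and with depth matched Xcl1 was 0.15, Mgat4a 0.19 and Havcr2 -0.13. With stricter membership Ccr7 was 0.30, Klrc1 -0.18 and Pdcd1 0.045, and with depth matched Xcl1 was 0.038 and Eno1 -0.0049. With terciles Pdcd1 was 0.088, and with depth matched Xcl1 was 0.14 and Mgat4a 0.26. Without cells above 20000 RNA UMIs Cd63 was -0.81 and Dct -0.29, and with depth matched Cd63 was -0.15, Xcl1 0.095 and Mgat4a 0.058. Without cells holding markers of non-T cells and depth-matched, Xcl1 was 0.071, Mgat4a 0.024 and Mgat5 0.32. Without proliferating cells Stmn1 was -0.29, Mgat2 0.12, Mgat4a -0.23 and Pdcd1 0.31, and with depth matched Xcl1 was 0.54, Pgk1 -0.015, Ldha -0.0075 and Dct -0.65. Without the highest Scrublet scores and depth-matched, Xcl1 was 0.038 and Mgat4a 0.19. Ncr1, Klrb1f, Gzma and Prf1 kept their sign in every setting that tested them.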
